A study of Homo sapiens with 4 samples.

Results

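The enzymes that turn farnesyl diphosphate into cholesterol through squalene were followed in prostate cancer cells exposed to atorvastatin (ATO). The 9 genes were FDFT1, SQLE, LSS, CYP51A1, TM7SF2, SC4MOL (now MSMO1), NSDHL, SC5DL (now SC5D) and DHCR7, chosen by name, and every gene probe on the arrays that carried one of these names was used. They took up 10 probes and 28 spots out of 34127 gene probes and 43118 gene spots, and they are 9 of the 27224 genes with a value on every array. One-colour Agilent arrays were run for untreated LNCaP cells, LNCaP cells given ATO, untreated PC3 cells and PC3 cells given ATO, at 1 array per group. These are called LNCaP control, LNCaP ATO and so on. Both lines come from human prostate cancers. LNCaP cells respond to androgen, and PC3 cells grow without it. All cells were grown in RPMI with 10% FBS, the ATO cells received 10 µM for 24 h, and the labels describe the controls as not treated and name no vehicle. The 4 arrays shared 1 slide, so that the position on the slide cannot be told apart from the group. No group had a replicate, so each ratio of ATO over control and each difference between the controls compares 2 arrays. Gaps between the lines and means over the lines use all 4. Each array read RNA from a whole culture, and a large change in some of the cells cannot be told apart from a smaller change in all of them.

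Cells make cholesterol from acetyl-CoA by way of mevalonate, and ATO, a statin, lowers the supply of mevalonate. FDFT1 is the first enzyme of the branch that leads only to sterols. The genes of the pathway are known targets of the transcription factor SREBP2, which is cut free from its membrane when sterols in the cell are low, and whose sites in promoters usually work together with the factors NF-Y and Sp1. Several late enzymes are also known from inborn disorders of sterol synthesis, DHCR7 from Smith-Lemli-Opitz syndrome and NSDHL from CHILD syndrome.

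In LNCaP cells, 7 of the 8 members with a value were at least 1.5-fold higher after ATO, and the median over the 8 was 0.83 on the log2 scale. The same call was made for 2.77% of the 13739 genes with a value in that line, bounds included. In PC3 cells, 6 of 9 members were at least 1.5-fold higher, with a median log2 ratio of 0.74, against 8.20% of 13815 genes. No member was at least 1.5-fold lower in either line, a call that 1.99% of genes met in LNCaP and 10.3% in PC3. SC4MOL had the highest ratio of the members in both lines, and DHCR7 was the only member whose ratio pointed in opposite directions in the lines. The median over all genes with a value was 0 in LNCaP and -0.01 in PC3. Genes well above background on just 1 array of a line enter these shares and medians as bounds, some of them set to 0. In LNCaP 6672 of the 13739 genes lay above 0 and 6236 below it, so the median of 0 falls among the bounds set to 0. Each member ratio was measured on both arrays.

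Promoter sequence is shown for SC4MOL, whose ratio was the highest of the members, for TM7SF2, whose copies separated the lines, and for DHCR7, whose ratio differed most between the lines. The 250 bases before the transcription start were taken from RefSeq on GRCh38.p14, which held 9 such windows for 7 of the members (DHCR7 and SC5DL have 2 listed starts each). Capitals mark each CCAAT, the core letters of an NF-Y site, and each GGGCGG, the core of a GC box bound by Sp1, on either strand. The first listed start was used, and the windows lie at chr4:165327419-165327668 on the plus strand for SC4MOL, chr11:65111622-65111871 on the plus strand for TM7SF2 and chr11:71448394-71448643 on the minus strand for DHCR7.
SC4MOL: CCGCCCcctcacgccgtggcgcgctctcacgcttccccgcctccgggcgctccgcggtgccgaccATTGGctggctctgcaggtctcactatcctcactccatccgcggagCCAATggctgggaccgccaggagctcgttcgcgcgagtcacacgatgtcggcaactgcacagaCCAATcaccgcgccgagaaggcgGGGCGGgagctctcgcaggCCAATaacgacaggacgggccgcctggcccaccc
TM7SF2: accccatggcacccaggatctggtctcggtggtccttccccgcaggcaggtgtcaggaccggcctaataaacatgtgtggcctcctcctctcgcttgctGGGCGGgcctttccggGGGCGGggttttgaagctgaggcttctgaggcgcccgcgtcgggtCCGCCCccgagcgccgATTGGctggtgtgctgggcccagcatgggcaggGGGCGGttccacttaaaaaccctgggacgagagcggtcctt
DHCR7: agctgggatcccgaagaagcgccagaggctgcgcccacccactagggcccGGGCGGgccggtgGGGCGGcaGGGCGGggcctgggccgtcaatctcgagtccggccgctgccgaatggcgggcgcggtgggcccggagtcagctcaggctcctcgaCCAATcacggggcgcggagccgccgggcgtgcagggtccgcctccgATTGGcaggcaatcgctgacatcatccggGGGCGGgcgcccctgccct

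CCAAT was found in 7 of the 9 member windows (6 genes) and in 32.0% of all 35116 windows in the RefSeq table. The windows of SC5DL overlap each other and hold the same CCAAT site, which is thus counted in both. GGGCGG was found in 7 of the 9 (6 genes) and in 42.6% of all windows. The letters TCACNCCAC, a form of the sterol response element that SREBP2 binds, were found in 0 member windows and in 0.883% of all windows. At so low a share, 0 of 9 windows cannot show whether the members have fewer such sites than other genes. Other forms of the element were not searched, and FDFT1 and SQLE had no window in the RefSeq table. Both strands were searched for each motif, and no match overlapped a match of another motif, while NSDHL held 1 pair of CCAAT matches that overlapped each other. NSDHL had 5 matches to CCAAT and 0 to GGGCGG, and LSS had 1 and 6. SC4MOL held 4 CCAAT matches, which began 185, 139, 76 and 34 bases before the start. TM7SF2 held 1 CCAAT match at 74 bases, with GGGCGG on both sides of it. DHCR7 held 2 CCAAT and 4 GGGCGG matches before its first listed start and 0 of either before its second. CYP51A1 had 0 CCAAT and 1 GGGCGG. The matches are a description of letters in these windows and were not tested as binding sites.

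The levels below are background-subtracted spot intensities on the scanner's linear scale, in intensity units. Ratios are log2 of ATO over control after each array was divided by its 75th percentile. Where the scanner software called more than 50% of a probe's usable spots well above background, the probe was taken to be so. For a probe with 1 spot, the error is the estimate of the scanner software, and it came to 0.20 for each of the bright members. For the probes spotted 10 times, it is the standard error over the copies. Both are technical errors of 1 RNA sample and leave out the spread between cultures. Intensities of different probes are not compared with each other.

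FDFT1 encodes squalene synthase, which joins farnesyl diphosphate into squalene. Its spot, on chromosome 8, read 11485 units in LNCaP control and 23554 in LNCaP ATO. In PC3 it read 2394 units in the control and 4499 after ATO. The level was thus higher after ATO in both lines, and both PC3 arrays lay below both LNCaP arrays. The log2 ratio was 0.94 ± 0.20 (1.91-fold) in LNCaP and 0.96 ± 0.20 (1.94-fold) in PC3, so the responses differed by 0.02, less than the error of either. Among the 8 members with a ratio in both lines, this was the smallest gap between the lines with the scaling used for these ratios. The closeness of the FDFT1 ratios depended on that scaling. They were 0.92 in LNCaP and 1.15 in PC3 when arrays were scaled to the 50th percentile, where those of CYP51A1 were closer, at 0.70 and 0.72. With spike-in scaling the FDFT1 ratios were 1.07 in LNCaP and 0.87 in PC3.

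SQLE encodes squalene epoxidase, an oxygen-dependent and rate-limiting enzyme of the branch. Its spot, also on chromosome 8, read 835 units in LNCaP control and 2007 after ATO. The PC3 control read 1618 units and the PC3 ATO array 2808. Both ATO arrays lay above both controls. The log2 ratio was 1.16 ± 0.20 (2.24-fold) in LNCaP and 0.84 ± 0.20 (1.79-fold) in PC3.

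LSS encodes lanosterol synthase, which closes the rings of the sterol. Its brighter probe (chr21:46433727-46433786 on hg18, minus strand) read 1248 and 2691 units without and with ATO in LNCaP and 1885 and 3041 in PC3, and again both ATO arrays lay above both controls. Its log2 ratio was 1.01 ± 0.20 (2.01-fold) in LNCaP and 0.74 ± 0.20 (1.67-fold) in PC3. On the PC3 ATO array this spot lay in a bright local background of 140 units, over the limit of 117 set for that array, and the part of this in the PC3 value was not tested. The other LSS probe (chr21:46432995-46433054) was dim. It gave a log2 ratio of 1.18 ± 0.36 in LNCaP, from 37.2 to 90.3 units, and was not well above background on either PC3 array.

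**Figure D1:**
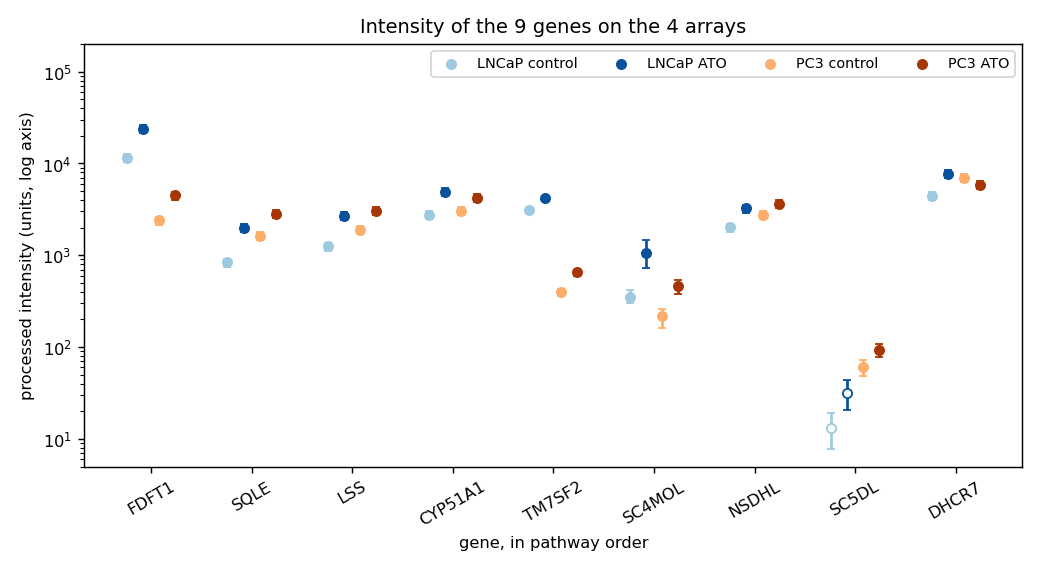
Processed intensity of each member (vertical log axis, intensity units) on the 4 arrays, with genes in pathway order along the horizontal axis. Points are single spots or the mean over copies, bars are the scanner error estimate or, for SC4MOL and TM7SF2, the range over copies, and open points were not well above background. FDFT1 and TM7SF2 were lower on both PC3 arrays than on both LNCaP arrays, and each ATO point except that of DHCR7 in PC3 lay above the control point of its line.

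CYP51A1 encodes the cytochrome P450 that removes the first methyl group from lanosterol. Its spot read 2770 units in LNCaP control and 4893 after ATO, against 3019 and 4205 in PC3. The controls were close to each other, and both ATO arrays lay above them. This gave log2 ratios of 0.72 ± 0.20 (1.65-fold) in LNCaP and 0.53 ± 0.20 (1.44-fold) in PC3, where it stayed under the 1.5-fold line. The files place the probe at chr7:91579399-91579431 on hg18, which covers only part of its 60 bases.

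TM7SF2 encodes a sterol reductase that acts on the product of CYP51A1. Its probe was spotted 10 times, and the ratios of its usable copies spread less than those of SC4MOL, the other member probe with copies. It carries the sequence shown here (chr11:64637567-64637626 on hg18, plus strand, with no annotation of exons of that build used here).
TM7SF2 probe: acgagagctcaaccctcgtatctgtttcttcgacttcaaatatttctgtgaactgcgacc

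The mean over the usable copies was 3089 units in LNCaP control and 4247 after ATO. In PC3 it was 399 units in the control and 652 after ATO. The level was higher after ATO in both lines and much lower in PC3 than in LNCaP. In LNCaP the log2 ratio was 0.36 ± 0.02 (1.28-fold, SE over 9 copies), with copies between 0.25 and 0.43. In PC3 it was 0.76 ± 0.03 (1.69-fold), with copies between 0.66 and 0.92. In each line 1 copy was left out because of an outlier spot, at 0.31 in LNCaP and 1.42 in PC3, and with outlier spots kept the PC3 ratio was 0.83. The usable copies of the 2 lines did not overlap, and TM7SF2 was the member with the larger ratio in PC3 by the widest gap, 0.40. The gap was 0.18 when arrays were scaled to the spike-in probes and 0.61 when they were scaled to the 50th percentile.

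SC4MOL encodes the methyl sterol oxidase that starts the removal of the remaining methyl pair. Its probe (chr4:166482640-166482699 on hg18, plus strand) also had 10 copies, all usable. They read 299 to 419 units in LNCaP control and 730 to 1465 after ATO, with means of 349 and 1056. The PC3 copies read 163 to 258 units in the control and 381 to 540 after ATO, with means of 219 and 466. Within each line, every copy after ATO read higher than every copy of the control. In LNCaP the mean ratio came to 1.495 ± 0.10 on the log2 scale (2.82-fold, SE over 10 copies) and in PC3 to 1.14 ± 0.07 (2.20-fold). Single copies ran from 1.04 to 1.77 in LNCaP and from 0.87 to 1.60 in PC3, so the copies of the lines overlapped. The SD over copies, 0.27 in LNCaP and 0.21 in PC3, was larger than the median SD of repeated probes on these arrays, 0.11 and 0.12.

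**Figure D2:**
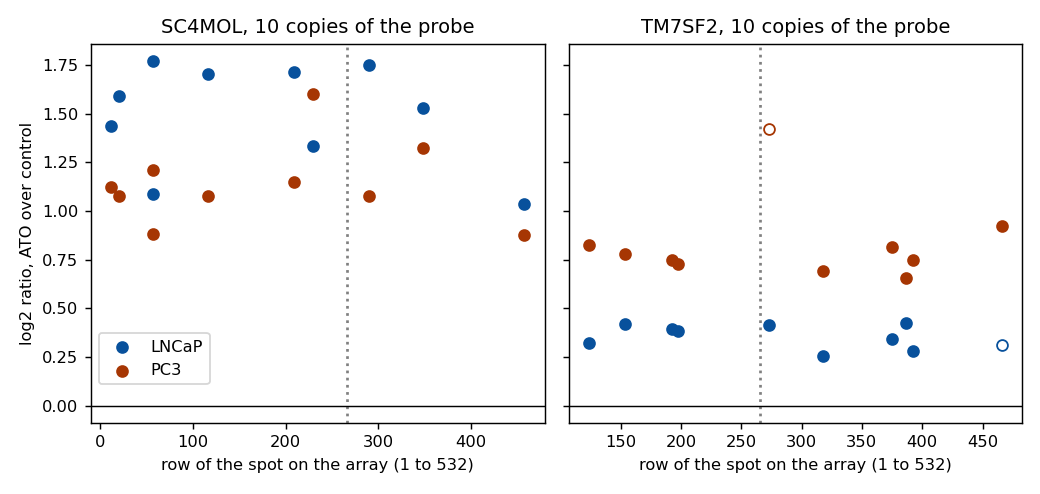
Log2 ratio of ATO over control (vertical axis) for each of the 10 copies of the SC4MOL and TM7SF2 probes, by the row of the spot on the array (horizontal axis). Blue is LNCaP, brown is PC3, open points were left out because a spot was called an outlier, and the dotted line marks row 266 of 532. All usable copies lay above 0, and the TM7SF2 copies of the lines formed separate bands from 0.25 to 0.43 and from 0.66 to 0.92.

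The copies also showed how far the position within an array moved the values. For SC4MOL, the 7 copies in the upper part of the array averaged 1.52 in LNCaP and 1.16 in PC3, and the 3 copies in the lower part averaged 1.44 and 1.09. For TM7SF2 the means of the 4 upper and the 5 lower copies were 0.38 and 0.34 in LNCaP and 0.77 and 0.77 in PC3. The parts thus differed by less than the SD over copies in each case.

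NSDHL encodes a sterol dehydrogenase that works in the same demethylation complex. Its spot (chrX:151788503-151788562 on hg18, plus strand) read 2014 units in LNCaP control and 3247 after ATO, against 2773 and 3661 in PC3. It was higher after ATO in both lines. It had a log2 ratio of 0.59 ± 0.20 (1.503-fold) in LNCaP, on the line of the 1.5-fold call, and 0.45 ± 0.20 (1.37-fold) in PC3, below it. The LNCaP ratio was under the call in 3 of 10 alternative settings.

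SC5DL encodes the desaturase of lathosterol, and its probe (chr11:120688490-120688549 on hg18, plus strand) was dim. It was not well above background on either LNCaP array, where it read 13.3 and 32.0 units, so no ratio is given for that line. In PC3 it read 60.7 units in the control and 92.6 after ATO, a log2 ratio of 0.66 ± 0.37 (1.58-fold). This error was the widest among the members with a ratio. The PC3 ratio was under the 1.5-fold call in 2 of 10 alternative settings, at 0.57 with spike-in scaling and 0.42 with normexp correction.

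DHCR7 encodes the reductase that makes cholesterol itself, the last step of one of the final routes. Its spot (chr11:70823162-70823221 on hg18, minus strand) read 4417 units in LNCaP control and 7763 in LNCaP ATO, but 7011 in PC3 control and 5799 in PC3 ATO. It was the only member for which the ATO array was below the control in PC3. The log2 ratio was 0.71 ± 0.20 (1.64-fold) in LNCaP and -0.23 ± 0.20 in PC3 (1.17-fold lower), so the PC3 value was about as large as its error. The ratio in PC3 stayed below 0 in each of the 9 alternative settings that gave a value, between -0.39 and -0.03. On the PC3 control array the spot lay in a local background of 121 units, just over the limit of 120.1 set for that array, and the part of this was not tested. The gap between the lines was -0.94, the widest of the 8 members with a ratio in both.

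**Figure D3:**
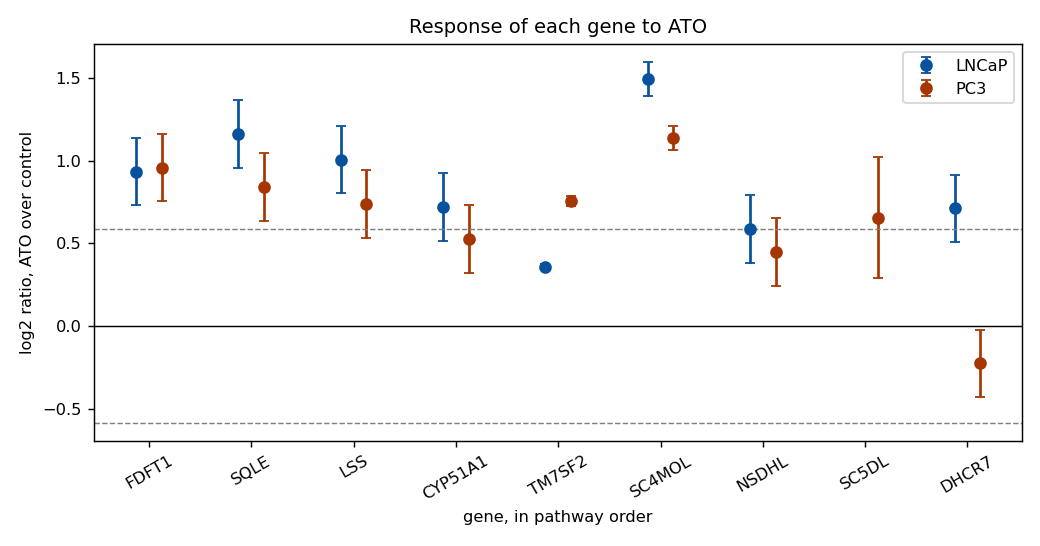
Log2 ratio of ATO over control (vertical axis) for each member in pathway order (horizontal axis), blue for LNCaP and brown for PC3. Bars are the scanner error estimate of single spots or the standard error over copies for TM7SF2 and SC4MOL, and dashed lines mark 1.5-fold. SC4MOL is highest in both lines at 1.495 and 1.14, and DHCR7 lies at 0.71 in LNCaP and -0.23 in PC3.

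The members were then compared between the untreated lines. FDFT1 was 5.68-fold and TM7SF2 9.17-fold lower in PC3 control than in LNCaP control, and these 2 of the 9 members were the ones at least 2-fold lower there. Over all 15237 genes with a value, 19.0% were at least 2-fold higher in LNCaP and 20.6% in PC3, where 0 members passed. After ATO the same genes still differed, by 5.59-fold for FDFT1 and 6.96-fold for TM7SF2. SC4MOL was 1.89-fold lower in PC3 control, and crossed the 2-fold line with quantile scaling (log2 difference -1.03) and with scaling to the 50th percentile (-1.36). SQLE was 1.64-fold higher in PC3. SC5DL was at least 1.88-fold higher in PC3, a bound, because it was measured on the PC3 array only. Its log2 difference passed 2-fold with cyclic loess (1.06) and spike-in scaling (1.42), and with no filter on dim probes (1.95). LSS, CYP51A1, NSDHL and DHCR7 differed between the controls by 1.34-fold or less, and the direction of each of these turned with the scaling of the arrays. The labelled lines were checked against defining genes of each. KLK3, KLK2 and TMPRSS2 were all higher in LNCaP control, by 17.5-fold for TMPRSS2 up to at least 1499-fold for KLK3. CAV1, CD44, VIM, ANXA1 and AXL were all higher in PC3 control, by 151-fold for VIM up to at least 382-fold for CAV1.

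To see how the response was shared, genes were counted that were at least 1.5-fold higher after ATO in both lines. This held for FDFT1, SQLE, LSS and SC4MOL, 4 members, and for 0.359% of the 11991 genes with a value in both lines (43 genes). When all 11016 genes that were above background by this call on each of the 4 arrays were ordered by the lower of their 2 log2 ratios, SC4MOL stood at rank 3, FDFT1 at 5, SQLE at 11 and LSS at 17. CYP51A1 came at rank 59, NSDHL at 93 and TM7SF2 at 157, while DHCR7 was at 7819. The genes next to them that are not members were AQP7P3 at rank 1, INSIG1 at 2, GDF15 at 4, STARD4 at 6 and TMEM45B at 7. INSIG1 retains the SREBP complex in the endoplasmic reticulum, and STARD4 carries sterols between membranes. The spots of AQP7P3 and TMEM45B lay in a bright local background on 1 and 2 of the arrays.

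**Figure D4:**
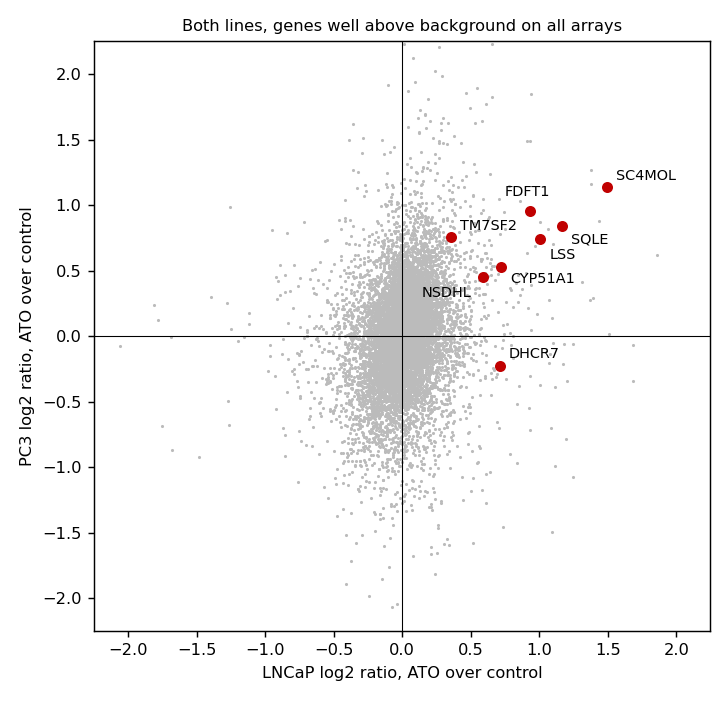
Log2 ratio of ATO over control in LNCaP (horizontal axis) and PC3 (vertical axis) for 11016 genes with a probe well above background on each array (grey) and the 8 members among them (red). A total of 10 genes lie outside the axes, and 7 of the 8 members are above 0 in both lines while DHCR7 is above 0 in LNCaP only.

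Seen within each line alone, the members held different ranks. In LNCaP the 8 members stood between rank 7 (SC4MOL) and rank 457 (TM7SF2) of 11016 ratios, with SQLE at 21, LSS at 35, FDFT1 at 41, CYP51A1 at 79, DHCR7 at 80 and NSDHL at 141. In PC3 they ran from rank 97 (SC4MOL) to 8363 (DHCR7), with FDFT1 at 168, SQLE at 244, TM7SF2 at 337, LSS at 366, CYP51A1 at 859 and NSDHL at 1166. Sizes of ratio across the 8 members had a Pearson r of 0.53 and a Spearman rho of 0.64 between the lines, given as a description since the members share the same 4 arrays. Over all genes well above background on each array, Pearson r was 0.19. The ratio was larger in LNCaP for 6 of the 8 members (SQLE, LSS, CYP51A1, SC4MOL, NSDHL and DHCR7). This count was 4 when arrays were scaled to the 50th percentile and 7 when they were scaled to the spike-in probes. The gap was -0.32 for SQLE, -0.27 for LSS, -0.19 for CYP51A1 and -0.14 for NSDHL. Each single ratio of these genes has an error of 0.20. A gap takes in the errors of both its ratios, so its error is larger than 0.20, and it was not computed. The share of all genes with a larger ratio in LNCaP was not counted, so the count of members has no background to be set against. With 1 array per group, the difference of the response between the lines was not tested.

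The treatment was tested once, with limma over both lines and cell line as a block, which leaves 1 residual degree of freedom. After Benjamini-Hochberg adjustment over 11902 genes, 0 genes (0%) and 0 members passed 0.05, and the smallest adjusted p was 0.762. An unadjusted p under 0.05 was reached by 532 genes. Of the genes tested, 1.99% had such a p together with a higher mean after ATO, and 7 members were among them. Their mean log2 ratios over the lines were 1.32 ± 0.16 (SE) for SC4MOL, 1.004 ± 0.15 for SQLE, 0.95 ± 0.13 for FDFT1, 0.87 ± 0.15 for LSS, 0.62 ± 0.14 for CYP51A1, 0.56 ± 0.17 for TM7SF2 and 0.52 ± 0.13 for NSDHL, each with an adjusted p of 0.762 and higher in 2 of 2 lines. DHCR7 had a mean of 0.24 ± 0.28 and an adjusted p of 0.816 in the limma fit. SC5DL was not tested, since it was not well above background in LNCaP.

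The other genes of sterol metabolism were taken from lists. Of 5 other late enzymes, among them EBP, HSD17B7, LBR and C14orf1, 1 passed the 1.5-fold call upward in LNCaP and 0 did in PC3, with median log2 ratios of 0.27 and 0.33. The one called was HSD17B7, the ketoreductase of the demethylation complex, at 0.90 in LNCaP and 0.48 in PC3. LBR, which catalyses the same step as TM7SF2, had ratios of 0.06 and -0.23. EBP, a sterol isomerase, had 0.27 and 0.10. The median of this list was thus lower than that of the members in both lines, and no test was made of that difference.

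Among the 8 enzymes of the mevalonate arm, which make farnesyl diphosphate, 6 passed it upward in LNCaP and 4 did in PC3, with medians of 0.73 and 0.57. HMGCS1, which makes HMG-CoA, had log2 ratios of 1.86 and 0.62, and MVD, which makes isopentenyl diphosphate, 1.01 and 0.87. FDPS, whose product FDFT1 uses, had 0.54 and 0.49, just under the call in both lines. Of the 10 genes of the SREBP machinery and uptake, 9 had a value and 4 were called higher in each line, with medians of 0.00 and 0.40. Among them were INSIG1 (1.38 and 1.16), STARD4 (0.93 and 1.49) and SREBF2, the gene of SREBP2 (0.65 and 0.69). SREBF1, which encodes the related factor of fatty acid synthesis, had 0.00 and 0.10. Of the 5 genes of LXR and efflux, 0 were called higher in either line. ABCG1, an exporter of sterols, was the 1 called lower in LNCaP, at -1.16, with -0.01 in PC3. The medians of that list were -0.22 over 4 genes and -0.01 over 5.

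**Figure D5:**
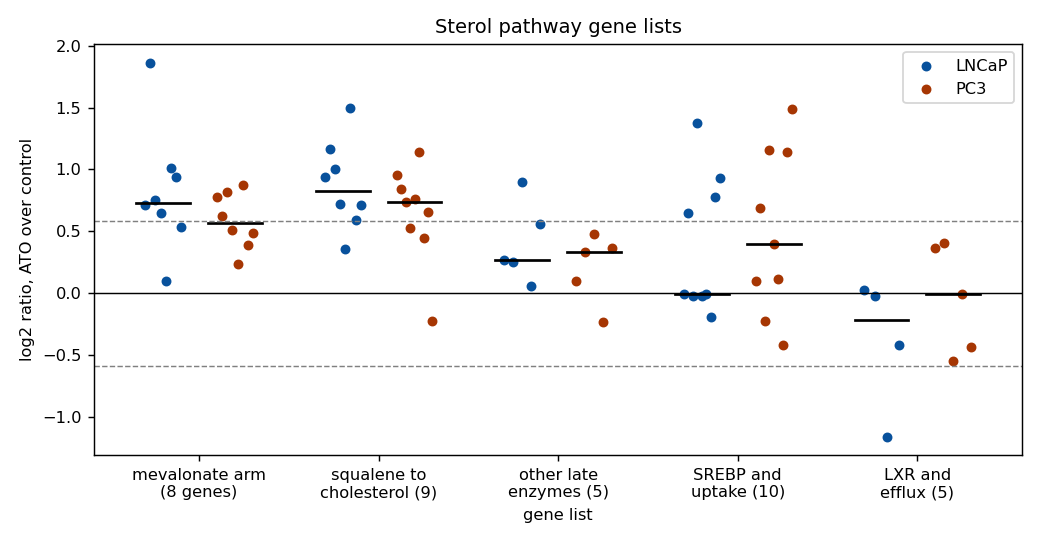
Log2 ratio of ATO over control (vertical axis) for the members and the 4 other lists of sterol genes (horizontal axis), blue for LNCaP and brown for PC3. Each point is a gene with a value, black bars are medians and dashed lines mark 1.5-fold. The members have the highest medians, 0.83 and 0.74, followed by the mevalonate arm with 0.73 and 0.57.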

How the data were processed

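Expression was measured on 4 one-colour Agilent arrays, 1 per group, on 1 slide. Per the file headers, the authors deposited spot intensity from Agilent Feature Extraction 9.5.3.1, with a spatially fitted background subtracted and an error estimate for each spot. The deposited value table holds a ratio, found to be the processed intensity over the array's 75th percentile, with a scaling not stated in the sources used here. Depth does not apply to arrays. The number of arrays limits the precision. Between 48.5% and 52.9% of the 43118 gene spots were well above background, and 0 were saturated.

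Outlier spots were dropped, the remaining spots of each probe were averaged as log2 processed intensity, and each array was centred on its 75th percentile. A gene was represented by its brightest probe. A ratio was given if either array had the probe well above background. If just 1 of them did, it is a bound against the lowest such signal on the other array. Thresholds were 1.5-fold for ATO against control and 2-fold between controls, with no p-value within a line. limma 3.58.1 (R 4.3.3, lmFit and eBayes, two-sided) tested the treatment over both lines. It was also run on simulated arrays with the same change in both lines, which is no check of its behaviour on these data. A local background counted as bright over the array median plus 3 robust SD. Coordinates of probes come from the files and use hg18. All 9 member names matched the RefSeq table of GRCh38.p14, SC4MOL and SC5DL through a synonym.

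Genes named are the 9 members, the sterol lists from general knowledge, 5 marker genes per line, and the 5 other genes with the highest lower ratio of the lines. The members and lists were chosen with earlier results of these data known. Some genes of these lists and markers enter the counts and medians but are not reported here by name. Alternatives were the 50th percentile, quantile, cyclic loess and spike-in scaling, normexp with an offset of 50, the deposited table, no filter, outlier spots kept, the median over probes, bright backgrounds left out, other fold thresholds and an intensity trend in limma.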

Additional observations from a re-analysis of the deposited data

Results flagged for a closer look

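The log2 ratio of ATO over control had opposite signs in the 2 lines for DHCR7, 0.71 ± 0.20 in LNCaP and -0.23 ± 0.20 in PC3 (scanner error estimates). The PC3 value met no fold call, was about the size of its error and was -0.03 with scaling to the 50th percentile. With 1 array per group, the difference between the lines was not tested. The gap ran from -1.25 with normexp correction to -0.73 with scaling to the 50th percentile, and it could not be given with bright local backgrounds left out, because the PC3 control spot lay in one.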

How the results depend on the processing

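Of 167 member ratios recomputed under the 10 alternative scalings, corrections and filters, 154 moved by no more than their technical error and 13 moved further, and none of the members at least 1.5-fold higher turned below 0. The 13 were all of SC4MOL, between 0.92 and 1.63, or TM7SF2, between 0.30 and 0.95, whose errors over copies are small. Those errors were 0.02 to 0.10, against 0.20 for the bright single-spot members. The split between the 154 and the 13 thus depends on the kind of error used. The number of members at least 1.5-fold higher ran from 6 to 8 in LNCaP and from 5 to 8 in PC3, where CYP51A1 was under the call in 8 of 10 settings, NSDHL in 9 and SC5DL in 2. LSS had no PC3 value with the median over probes or with bright local backgrounds left out, and the PC3 count was 5 in both. The 8 in LNCaP came with no filter on dim probes, which called 10381 of 27224 genes higher and raised the LNCaP median by 0.17. At a threshold of 2-fold, 3 members were left in LNCaP (SQLE, LSS and SC4MOL) and 1 in PC3 (SC4MOL). The same threshold was met by 221 of 13739 genes in LNCaP and by 317 of 13815 in PC3. Between the controls, 4 members differed at least 2-fold with spike-in scaling, where SQLE (1.22) and SC5DL (a bound of 1.42) joined FDFT1 and TM7SF2. At 4-fold the count stayed at 2. The share of all genes that differed between the controls was not counted with spike-in scaling or at 4-fold. Scaling to the 50th percentile raised the median of all genes in PC3 by 0.19 and turned its split of calls from 1133 higher and 1419 lower to 2154 and 910. Spike-in scaling gave 834 and 1789 in PC3, and moved the LNCaP median by 0.13. The cause of these shifts was not tested. With limma, 5 genes passed the adjusted threshold with the 50th percentile and 0 otherwise, and 0 members passed in any setting.

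Cell line is the block of the limma fit, and its standard errors rest on the spread between the lines, moderated over all genes tested. With 1 array per group, the ratios within a line have technical errors only. Signal over background limits SC5DL in both lines and the other LSS probe in PC3, and single-spot probes have no copies to check them against.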
